A study of Mus musculus with 14 samples.

Results

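The 9 genes described here make, store, transport, sense and break down histamine and the monoamines: Hdc, Hnmt, Hrh1, Hrh2, Tph1, Slc18a2, Slc6a2, Maoa and Maob. They were chosen by symbol, and each matched 1 of the 24035 genes kept from a deposited table in TPM. A TPM value is a share of the RNA counted in a sample, corrected for gene length. RNA was taken from whole mouse ear in 4 groups that differed in genotype and in what was painted on the skin. LC-DTA mice, a model of long-term loss of Langerhans cells (dendritic cells resident in the epidermis), gave 4 ears treated with croton oil and 3 treated with vehicle. LC-DTR mice, taken 3 days after diphtheria toxin (DT) and serving as a model of short-term loss, gave the same numbers, 4 and 3. Each ear received 20 µl of 1% croton oil, a skin irritant, or of the vehicle alone, acetone and olive oil at 4 to 1, on both sides, and the RNA represents 6 h of exposure. Langerhans cells were targeted in every group, so no ear with intact Langerhans cells was analysed here, and genotype and the toxin given to LC-DTR mice cannot be told apart. The sources used here do not give the promoter behind each transgene, or the age and sex of the mice.

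Histamine is made from histidine in a single step and is held in granules, mainly of mast cells and basophils, until release. It acts through receptors on vessels, nerves and leukocytes and is inactivated by methylation or by oxidation. Serotonin, which rodent mast cells also store, and noradrenaline, which sympathetic nerves release in skin, share vesicular storage with histamine, and both are taken back up by plasma membrane transporters and oxidised by the monoamine oxidases.

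Keratinocyte markers summed to between 22200 and 41330 TPM in the 14 samples and the Langerhans cell gene Cd207 reached at most 1.88 TPM. The first principal component, 50.5% of the variance, separated croton oil from vehicle, and the second, 27.6%, separated the genotypes. LC-DTR croton oil samples 2 and 3 stood apart, with first-component scores of 5.26 and 8.06, against 28.5 and 28.6 for samples 1 and 4 of that group. The numbers in the sample descriptions ran from 10575 to 10797 in LC-DTA and from 10825 to 11098 in LC-DTR; what they record is not stated, and they cannot be told apart from genotype. Nothing in the labels ties the samples of one group to different mice, and the p-values therefore cover only the spread among these samples, which may be technical. Differences were tested with limma on log2(TPM + 1) over 14693 genes, two-sided, with Benjamini-Hochberg adjustment, and a gene was called where the adjusted p fell below 0.05.

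In LC-DTA ears, Hdc, Hrh2 and Maoa rose with croton oil and Hnmt, Hrh1 and Slc6a2 fell, 3 and 3 of 9, where 58.7% of all tested genes were called (24.2% higher and 34.5% lower). In LC-DTR ears, Hdc rose and Hnmt, Slc6a2, Maoa and Maob fell, 1 and 4 of 9, where 51.6% of all tested genes were called (22.1% higher and 29.5% lower). Between genotypes, Hdc, Hrh1 and Slc18a2 were higher in LC-DTA under vehicle, 3 of 9 and none lower, where 24.5% of all tested genes were called (19.1% higher and 5.34% lower). After croton oil 6 members were higher in LC-DTA and 1 was lower, where 52.3% of all tested genes were called (34.3% higher and 18.0% lower). The croton oil responses of the genotypes differed for Hdc, Maoa and Maob, 2 of them higher and 1 lower in LC-DTA relative to LC-DTR, where 23.1% of all tested genes were called (10.5% higher and 12.6% lower). These counts describe the 9 genes only, since some members passed the filter on low values through groups where they were high. Hrh1 passed through LC-DTA samples alone and Hrh2 through 3 LC-DTA croton oil samples alone. Tph1 passed through 4 LC-DTA samples and 1 LC-DTR sample.

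**Figure D1:**
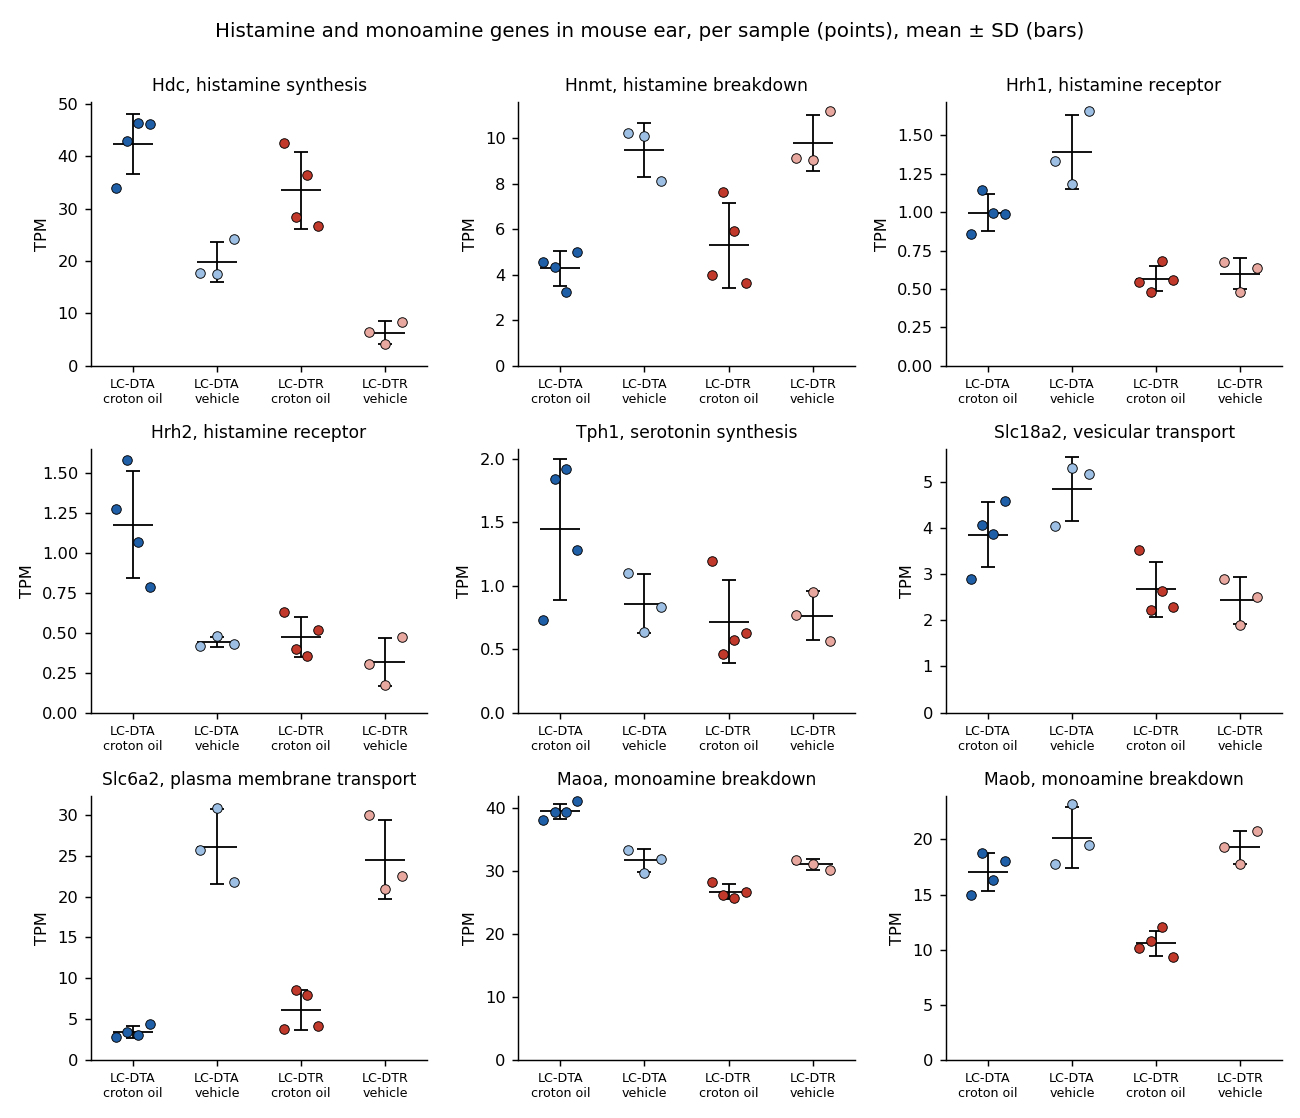
TPM of each of the 9 genes (vertical axes, from 0) in every sample, by genotype and treatment; points are samples and bars are mean ± SD. Hdc was highest after croton oil in both genotypes and lowest in LC-DTR vehicle ears, while Slc6a2 was at 21.0 TPM or above in all vehicle ears and at 8.51 TPM or below in all croton oil ears.

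The genes lie on GRCm38 (mm10), with spans from GENCODE M21, which is not stated to be the annotation the authors counted with. Hdc spans chr2:126593667-126619299 and Hnmt chr2:24002910-24049394, both on the minus strand. Hrh1 spans chr6:114397936-114483296 and Hrh2 chr13:54192129-54236180, both on the plus strand. Tph1 spans chr7:46644641-46672537 on the minus strand, Slc18a2 chr19:59260896-59296012 on the plus strand and Slc6a2 chr8:92960079-93001667 on the plus strand. Maoa, chrX:16619698-16687818 on the plus strand, and Maob, chrX:16709282-16817366 on the minus strand, are neighbours whose 3′ ends face each other. Hrh2 and Slc18a2 overlap the antisense genes Gm16578 and Gm29261. Whether counting used strand is not stated, so how reads were assigned where each pair overlaps is not known.

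The 250 bases before the RefSeq start are shown for 3 genes: the member with the largest rise, the histamine-breakdown gene that fell in both genotypes, and the member called in opposite directions in the 2 genotypes. They are from RefSeq on GRCm38.p6, written along the gene's own strand, 5′ to 3′, from chr2:126618679-126618928 (Hdc, minus strand), chr2:24049380-24049629 (Hnmt, minus strand) and chrX:16619448-16619697 (Maoa, plus strand), with motif matches in capitals. The RefSeq start of Hdc lies inside the GENCODE span given above, as do the last bases of the Hnmt window.
Hdc: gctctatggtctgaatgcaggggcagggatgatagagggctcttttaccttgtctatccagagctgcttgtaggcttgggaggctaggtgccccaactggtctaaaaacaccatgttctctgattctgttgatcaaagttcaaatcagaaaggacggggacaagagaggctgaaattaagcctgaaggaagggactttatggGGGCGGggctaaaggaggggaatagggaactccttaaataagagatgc
Hnmt: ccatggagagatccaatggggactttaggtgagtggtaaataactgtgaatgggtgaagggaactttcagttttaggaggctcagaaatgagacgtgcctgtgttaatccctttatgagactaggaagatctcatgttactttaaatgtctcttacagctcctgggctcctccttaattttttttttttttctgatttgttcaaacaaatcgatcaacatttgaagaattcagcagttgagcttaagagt
Maoa: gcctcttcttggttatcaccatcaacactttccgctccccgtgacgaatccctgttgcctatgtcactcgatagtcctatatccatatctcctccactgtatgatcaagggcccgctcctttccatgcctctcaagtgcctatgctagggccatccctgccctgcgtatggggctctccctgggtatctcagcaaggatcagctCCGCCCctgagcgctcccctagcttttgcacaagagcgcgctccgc
Both strands were searched for AP-1 (TGA, any base, TCA), CRE (TGACGTCA), the GATA motif AGATAA, the GC box motif GGGCGG, the E-box motif CACGTG and the TATA box motif TATAAA. Hdc and Maoa each held 1 GC box, in Maoa on the opposite strand (CCGCCC), and Hnmt held no match. Of 32851 such windows, 32.7% held the GC box, 6.75% AP-1, 1.55% CRE, 9.99% GATA, 6.02% the E-box and 12.4% the TATA box. Of the 9 members 7 had an entry, and Slc6a2 and Maob did not.

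Hdc, histidine decarboxylase, the enzyme that makes histamine, rose with croton oil in both genotypes and was already higher in LC-DTA ears under vehicle. In LC-DTA it stood at 34.0, 42.9, 46.3 and 46.2 TPM after croton oil, against 17.7, 17.5 and 24.2 TPM under vehicle. In LC-DTR it stood at 42.5, 28.5, 36.4 and 26.6 TPM after croton oil, against 6.45, 4.07 and 8.38 TPM under vehicle. All croton oil ears were above all vehicle ears within each genotype, and the LC-DTA vehicle ears lay above the LC-DTR vehicle ears, whereas the croton oil groups overlapped. Of all tested genes, 63.0% did not overlap with croton oil in LC-DTA, 47.7% in LC-DTR, 42.5% between genotypes under vehicle and 45.2% after croton oil.

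The log2 difference of croton oil over vehicle was 1.07 ± 0.20 (SE) in LC-DTA, with a limma adjusted p of 5.85e-04. In LC-DTR it was 2.26 ± 0.20, with a limma adjusted p of 3.24e-06, and 0.497% of tested genes moved as far or farther there. The difference of the responses, LC-DTA minus LC-DTR, was -1.20 ± 0.29 with a limma adjusted p of 0.0109. Under vehicle, LC-DTA exceeded LC-DTR by 1.54 ± 0.22 on the log2 scale (limma adjusted p = 7.60e-04), a difference that 0.184% of tested genes reached or passed. After croton oil the genotype difference was 0.34 ± 0.19 (limma adjusted p = 0.143), with a 95% interval from -0.064 to 0.75. In order of mean level the groups ran LC-DTA croton oil at 42.4 ± 5.80 TPM (SD, n = 4), LC-DTR croton oil at 33.5 ± 7.37 TPM (n = 4), LC-DTA vehicle at 19.8 ± 3.85 TPM (n = 3) and LC-DTR vehicle at 6.30 ± 2.16 TPM (n = 3). Of these neighbours, the LC-DTA croton oil and LC-DTR croton oil samples overlapped and the others did not. Without LC-DTR croton oil 2 and 3, the LC-DTR rise was 2.29 and the difference of responses -1.23 (limma adjusted p = 0.0233).

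Neutrophil, mast cell and basophil markers are given beside Hdc, since each of these cells can make histamine. Neutrophil markers, 11 genes, summed to 455 to 689 TPM after croton oil and 35.0 to 70.3 TPM under vehicle in LC-DTA, and to 267 to 780 TPM after croton oil and 26.9 to 70.4 TPM under vehicle in LC-DTR. Of the 10 tested, 9 rose in each genotype, where 24.2% of all tested genes rose in LC-DTA and 22.1% in LC-DTR. Under vehicle 1 of 10, Cd177, was higher in LC-DTA, where 19.1% of all tested genes were higher. Cd177 reached 1 TPM in LC-DTA croton oil samples alone, and Mmp8 and Trem1 in croton oil samples alone. The filter on low values took these genes in through groups where they were high, so the neutrophil counts are no test. S100a8 and S100a9 made up most of the neutrophil sums. In LC-DTA croton oil ears they averaged 177 and 245 TPM of a mean sum of 539 TPM. In LC-DTR croton oil ears they averaged 185 and 240 TPM of a mean sum of 532 TPM. Mast cell markers, 10 genes that include Cma1 and Mcpt4, summed to 381 to 487 TPM after croton oil and 417 to 629 TPM under vehicle in LC-DTA, and to 192 to 310 TPM after croton oil and 214 to 312 TPM under vehicle in LC-DTR. With croton oil, 1 rose and 5 fell in LC-DTA, where 24.2% of all tested genes rose and 34.5% fell. In LC-DTR 1 rose and 1 fell, where 22.1% of all tested genes rose and 29.5% fell. Under vehicle 8 of 10 were higher in LC-DTA than in LC-DTR, where 19.1% of all tested genes were higher. The median log2 difference of the 10 was 0.83, against 0.097 over all tested genes. Of 4 tested basophil markers, 3 rose in LC-DTA (Mcpt8, Cd200r3 and Ccr3) and 1 in LC-DTR (Il6ra). Mcpt8 and Ccr3 each reached 1 TPM in 3 LC-DTA croton oil samples alone, and Cd200r3 in LC-DTA samples alone. The filter on low values therefore took them in through LC-DTA, where they were high, and 3 against 1 is no test. In LC-DTA croton oil ears Cd200r3 averaged 2.47 TPM and Mcpt8 1.32 TPM, against 90.0 TPM for Il6ra. In LC-DTR croton oil samples 1 to 4, neutrophil sums were 780, 346, 267 and 737 TPM and mast cell sums 278, 219, 310 and 192 TPM. In LC-DTA croton oil samples 1 to 4 they were 485, 528, 689 and 455 TPM and 381, 487, 406 and 431 TPM. The Hdc values above are in the same sample order. All 6 fibroblast markers were also higher in LC-DTA vehicle ears, with a median log2 difference of 1.29, where 19.1% of all tested genes were higher. The part of these cells in the Hdc values was not tested. In whole tissue more cells of a type and more RNA per cell cannot be told apart. Nor can marker RNA from these cells be told apart from marker RNA of other ear cells, keratinocytes included.

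**Figure D2:**
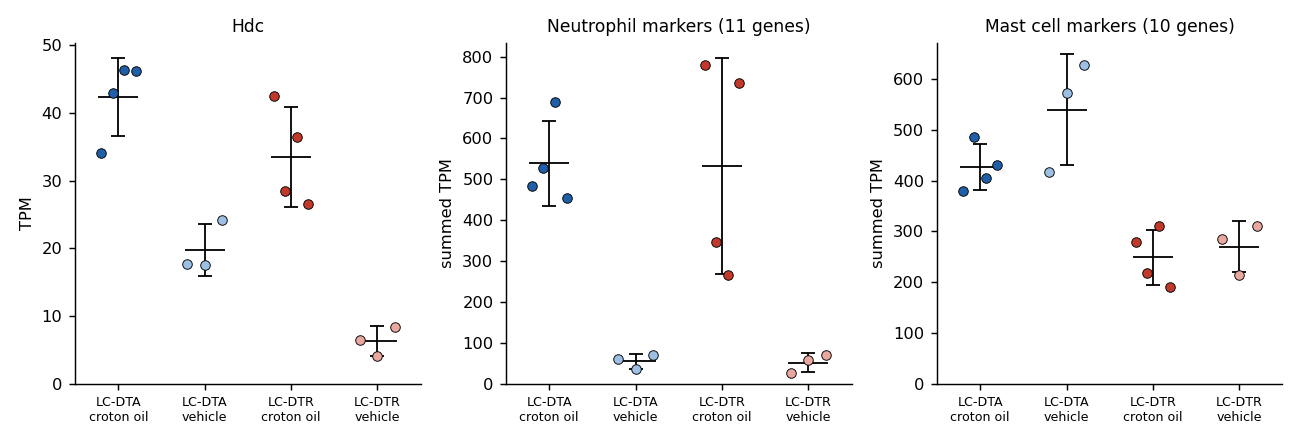
TPM of Hdc and the summed TPM of 11 neutrophil and 10 mast cell marker genes (vertical axes, from 0) in every sample by group; points are samples and bars are mean ± SD. Neutrophil marker sums, mostly S100a8 and S100a9, were 267 TPM or more in all croton oil ears and 70.4 TPM or less in all vehicle ears. Mast cell marker sums were 381 TPM or more in all LC-DTA ears and 312 TPM or less in all LC-DTR ears.

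Hnmt, histamine N-methyltransferase, which inactivates histamine inside cells, fell with croton oil in both genotypes. It stood at 4.56, 4.34, 3.22 and 5.01 TPM in LC-DTA croton oil ears, against 10.2, 10.1 and 8.09 TPM in LC-DTA vehicle ears. It stood at 3.98, 7.63, 5.91 and 3.61 TPM in LC-DTR croton oil ears, against 9.10, 9.02 and 11.2 TPM in LC-DTR vehicle ears. The groups did not overlap within either genotype, and samples 2 and 3 of the LC-DTR croton oil group were the highest of that group. The log2 difference was -0.99 ± 0.19 in LC-DTA (limma adjusted p = 6.13e-04) and -0.82 ± 0.19 in LC-DTR (limma adjusted p = 0.00298), or -1.16 in LC-DTR without samples 2 and 3. The responses differed by -0.18 ± 0.27 (limma adjusted p = 0.670), with a 95% interval from -0.76 to 0.41. Genotypes did not differ at the threshold under vehicle (-0.041 ± 0.21, limma adjusted p = 0.910) or after croton oil (-0.22 ± 0.18, limma adjusted p = 0.324). The ratio of Hdc to Hnmt, in TPM, was 10.2 ± 2.95 in LC-DTA croton oil ears and 2.15 ± 0.73 in LC-DTA vehicle ears, and 6.99 ± 2.89 in LC-DTR croton oil ears and 0.637 ± 0.16 in LC-DTR vehicle ears (SD, n = 4 after croton oil and 3 under vehicle).

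The histamine receptors were low, between 0.173 and 1.66 TPM. Hrh1, the receptor that couples to Gq and is the target of classical antihistamines, was at 0.856, 1.15, 0.996 and 0.991 TPM in LC-DTA croton oil ears and at 1.34, 1.19 and 1.66 TPM in LC-DTA vehicle ears. It was at 0.548, 0.483, 0.679 and 0.559 TPM in LC-DTR croton oil ears and at 0.678, 0.483 and 0.638 TPM in LC-DTR vehicle ears. All LC-DTA ears exceeded all LC-DTR ears, and the LC-DTA croton oil ears lay below the LC-DTA vehicle ears without overlap. The genotype difference was 0.58 ± 0.10 under vehicle (limma adjusted p = 0.00190) and 0.35 ± 0.089 after croton oil (limma adjusted p = 0.00481). With croton oil it changed by -0.26 ± 0.096 in LC-DTA (limma adjusted p = 0.0326) and by -0.029 ± 0.096 in LC-DTR (limma adjusted p = 0.822), and the responses differed by -0.23 ± 0.14 (limma adjusted p = 0.237). The LC-DTA call was lost when any of 5 single samples was left out: LC-DTA vehicle 1 or 3, or LC-DTA croton oil 1, 3 or 4 (log2 -0.27 to -0.18, limma adjusted p from 0.0565 to 0.165).

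Hrh2, the receptor that couples to Gs and raises cyclic AMP, was at 1.27, 1.58, 1.07 and 0.786 TPM in LC-DTA croton oil ears and at 0.419, 0.478 and 0.434 TPM in LC-DTA vehicle ears. It was at 0.632, 0.399, 0.355 and 0.517 TPM in LC-DTR croton oil ears and at 0.304, 0.173 and 0.473 TPM in LC-DTR vehicle ears. The LC-DTA croton oil ears were above every other sample. The log2 difference with croton oil was 0.58 ± 0.13 in LC-DTA (limma adjusted p = 0.00137) and 0.17 ± 0.13 in LC-DTR (limma adjusted p = 0.284), and after croton oil LC-DTA exceeded LC-DTR by 0.55 ± 0.12 (limma adjusted p = 0.00140). The difference of the responses was 0.41 ± 0.18 (limma adjusted p = 0.107) and passed the threshold without LC-DTA croton oil 4 (0.50, limma adjusted p = 0.0451). With no filter on low values, the limma adjusted p was 0.00252 for the Hrh2 rise in LC-DTA and 0.00250 for the Hrh1 genotype difference under vehicle.

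Tph1, the rate-limiting enzyme of serotonin synthesis outside the brain, was at 0.729, 1.84, 1.92 and 1.28 TPM in LC-DTA croton oil ears and at 1.10, 0.636 and 0.833 TPM in LC-DTA vehicle ears. It was at 1.20, 0.464, 0.576 and 0.625 TPM in LC-DTR croton oil ears and at 0.772, 0.950 and 0.565 TPM in LC-DTR vehicle ears. The groups overlapped in every comparison. Croton oil gave a log2 difference of 0.37 ± 0.18 in LC-DTA (limma adjusted p = 0.0956) and of -0.052 ± 0.18 in LC-DTR (limma adjusted p = 0.834). After croton oil LC-DTA exceeded LC-DTR by 0.50 ± 0.17 (limma adjusted p = 0.0251), a call lost without any of 5 samples, LC-DTR croton oil 2, 3 or 4 or LC-DTA croton oil 2 or 3 (limma adjusted p from 0.0548 to 0.0794), and at 0.34 without LC-DTR croton oil 2 and 3 together (limma adjusted p = 0.207). That call was also lost with no filter on low values (limma adjusted p = 0.0546), under quantile normalization (0.39, limma adjusted p = 0.0740) and with the replicate block (limma adjusted p = 0.0523). Without LC-DTA croton oil 1 the LC-DTA response was 0.53 (limma adjusted p = 0.0141).

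Slc18a2, the vesicular monoamine transporter that loads histamine and monoamines into granules, was higher in LC-DTA ears under vehicle. It stood at 2.90, 4.05, 3.87 and 4.58 TPM in LC-DTA croton oil ears and at 4.04, 5.30 and 5.16 TPM in LC-DTA vehicle ears. It stood at 3.52, 2.22, 2.64 and 2.29 TPM in LC-DTR croton oil ears and at 2.90, 1.89 and 2.51 TPM in LC-DTR vehicle ears. The vehicle groups did not overlap between genotypes, and the croton oil groups did. Under vehicle the genotype difference was 0.77 ± 0.16 (limma adjusted p = 0.00494), beside a median of 0.83 over the mast cell markers. Other medians were 0.84 over monocyte and macrophage, 1.29 over fibroblast, 0.60 over platelet and 0.58 over Schwann cell markers. Keratinocyte markers had -0.36, and all tested genes 0.097. The part of any of these cells in the Slc18a2 values was not tested. After croton oil the genotype difference in Slc18a2 was 0.41 ± 0.14 (limma adjusted p = 0.0277). That call was lost without LC-DTR croton oil 2 or 4 or LC-DTA croton oil 2, 3 or 4 (limma adjusted p from 0.0543 to 0.0835). Without LC-DTR croton oil 2 and 3 together the difference was 0.32 (limma adjusted p = 0.166). The call after croton oil was also lost under quantile normalization (0.22, limma adjusted p = 0.161), with no filter (limma adjusted p = 0.0586) and with the replicate block (limma adjusted p = 0.0550). Croton oil gave -0.27 ± 0.15 in LC-DTA (limma adjusted p = 0.142) and 0.092 ± 0.15 in LC-DTR (limma adjusted p = 0.639).

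Slc6a2, the plasma membrane transporter that takes noradrenaline back up, fell the most of the 9 genes with croton oil in both genotypes. It stood at 2.84, 3.41, 2.98 and 4.42 TPM in LC-DTA croton oil ears, against 25.8, 30.9 and 21.8 TPM in LC-DTA vehicle ears. It stood at 3.76, 8.51, 7.93 and 4.19 TPM in LC-DTR croton oil ears, against 30.1, 21.0 and 22.5 TPM in LC-DTR vehicle ears. No croton oil ear overlapped a vehicle ear, and LC-DTR croton oil 2 and 3 were higher than the other croton oil ears. The log2 difference was -2.62 ± 0.23 in LC-DTA (limma adjusted p = 2.22e-06) and -1.90 ± 0.23 in LC-DTR (limma adjusted p = 3.07e-05), and 0.463% and 0.885% of tested genes moved as far in those comparisons. Without LC-DTR croton oil 2 and 3 the LC-DTR difference was -2.34 and the responses differed by -0.28 (limma adjusted p = 0.432). The responses differed by -0.72 ± 0.33 (limma adjusted p = 0.128). After croton oil the log2 difference of LC-DTA over LC-DTR was -0.63 ± 0.22 (limma adjusted p = 0.0251), a call lost without any of LC-DTR croton oil 2 or 3 or LC-DTA croton oil 1 or 3 (limma adjusted p from 0.0598 to 0.0833), and at -0.19 (limma adjusted p = 0.411) without LC-DTR croton oil 2 and 3. It was also lost with no filter on low values (limma adjusted p = 0.0664).

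Markers of sympathetic neurons, the cells known for Slc6a2, and of hair follicles are given beside it, and nerve supply was not measured. Dbh was at most 0.0418 TPM, and Phox2a and Hand2 stayed below 1 TPM, and 1 of 7 markers, Npy, passed the filter on low values. With croton oil Npy was called higher in LC-DTR, by 1.15 on the log2 scale, with means of 4.7 against 1.6 TPM. In LC-DTA it was not called (0.010), with means of 2.5 against 2.4 TPM. The difference of the Npy responses, -1.14, was called. The 7 summed to 2.80 to 5.88 TPM in LC-DTA croton oil ears, 3.21 to 4.23 TPM in LC-DTA vehicle ears, 4.36 to 6.52 TPM in LC-DTR croton oil ears and 2.45 to 3.18 TPM in LC-DTR vehicle ears. Of 8 hair follicle markers, 7 fell with croton oil in LC-DTA, where 34.5% of all tested genes fell. In LC-DTR 6 fell and 1, Sox9, rose, where 29.5% of all tested genes fell and 22.1% rose. The hair follicle sum, of which Krt15 held 79.9% to 94.5%, was 519 to 663 TPM in LC-DTA croton oil ears and 2111 to 2453 TPM in LC-DTA vehicle ears. In LC-DTR croton oil ears it was 425, 1206, 1047 and 553 TPM for samples 1 to 4, against 2327, 2976 and 1851 TPM for samples 1 to 3 of LC-DTR vehicle ears. Samples 2 and 3 had the higher sums and the higher Slc6a2 in the LC-DTR croton oil group, whereas LC-DTR vehicle 2 had the highest sum and the lowest Slc6a2 of its group. The part of nerve or hair follicle RNA in the Slc6a2 values was not tested.

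**Figure D3:**
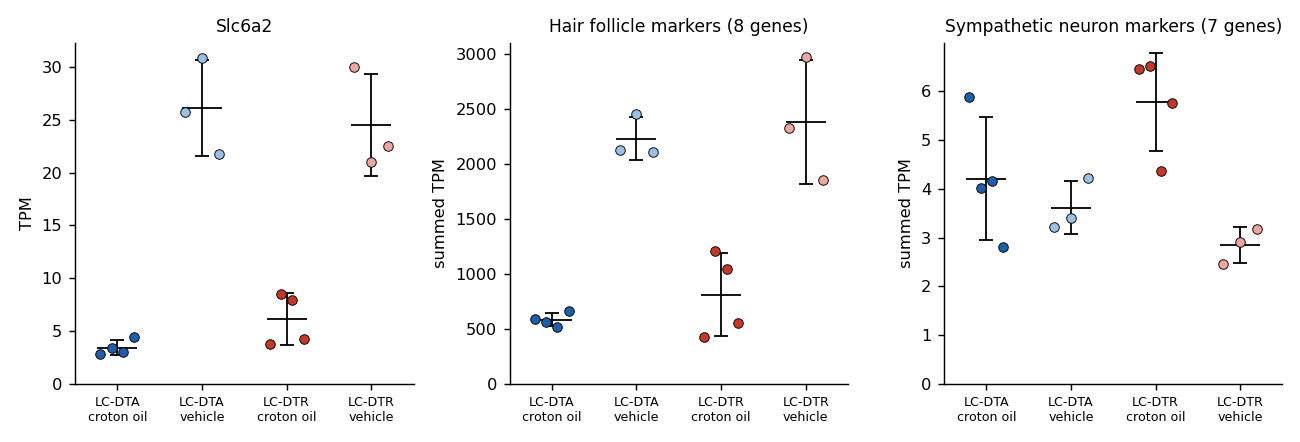
TPM of Slc6a2 and the summed TPM of 8 hair follicle and 7 sympathetic neuron marker genes (vertical axes, from 0) in every sample by group; points are samples and bars are mean ± SD. Slc6a2 and the hair follicle sum were lower in every croton oil ear than in every vehicle ear, while the neuron sum stayed below 7 TPM throughout. The neuron sum was 4.36 TPM or more in LC-DTR croton oil ears and 3.18 TPM or less in LC-DTR vehicle ears. In LC-DTA the neuron sums of the treatments overlapped.

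Maoa and Maob encode the monoamine oxidases of the outer mitochondrial membrane. Maoa, which prefers serotonin and noradrenaline, was at 38.1, 39.3, 39.4 and 41.1 TPM in LC-DTA croton oil ears, against 33.4, 29.8 and 31.9 TPM in LC-DTA vehicle ears. It was at 28.3, 26.2, 25.7 and 26.7 TPM in LC-DTR croton oil ears, against 31.8, 31.1 and 30.2 TPM in LC-DTR vehicle ears. The croton oil ears lay above the vehicle ears in LC-DTA and below them in LC-DTR, with no overlap in either. The log2 difference was 0.31 ± 0.058 in LC-DTA (limma adjusted p = 4.53e-04) and -0.21 ± 0.058 in LC-DTR (limma adjusted p = 0.00802), and the responses differed by 0.52 ± 0.082 (limma adjusted p = 0.00120). The LC-DTR call was lost without LC-DTR croton oil 2 and 3 together (-0.17, limma adjusted p = 0.0538). After croton oil LC-DTA exceeded LC-DTR by 0.55 ± 0.053 (limma adjusted p = 6.31e-06), and under vehicle the difference was 0.027 ± 0.062 (limma adjusted p = 0.784).

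Maob, which oxidises phenylethylamine and the methylated histamine that Hnmt makes, was at 15.0, 18.8, 16.3 and 18.0 TPM in LC-DTA croton oil ears, against 17.8, 23.2 and 19.5 TPM in LC-DTA vehicle ears. It was at 10.1, 10.8, 12.1 and 9.33 TPM in LC-DTR croton oil ears, against 19.4, 17.8 and 20.7 TPM in LC-DTR vehicle ears. The groups overlapped in LC-DTA and did not in LC-DTR. The log2 difference was -0.23 ± 0.11 in LC-DTA (limma adjusted p = 0.0843) and -0.81 ± 0.11 in LC-DTR (limma adjusted p = 5.55e-05), and the responses differed by 0.59 ± 0.15 (limma adjusted p = 0.0155). That difference was 0.57 without LC-DTA croton oil 3 and 4 (limma adjusted p = 0.0504), and the LC-DTA response passed the threshold without LC-DTA vehicle 1 (-0.31, limma adjusted p = 0.0428). After croton oil LC-DTA exceeded LC-DTR by 0.64 ± 0.10 (limma adjusted p = 1.60e-04). The ratio of Maoa to Maob, in TPM, was 2.33 ± 0.20 in LC-DTA croton oil ears and 1.60 ± 0.30 in LC-DTA vehicle ears, and 2.56 ± 0.35 in LC-DTR croton oil ears and 1.62 ± 0.15 in LC-DTR vehicle ears (SD).

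**Figure D4:**
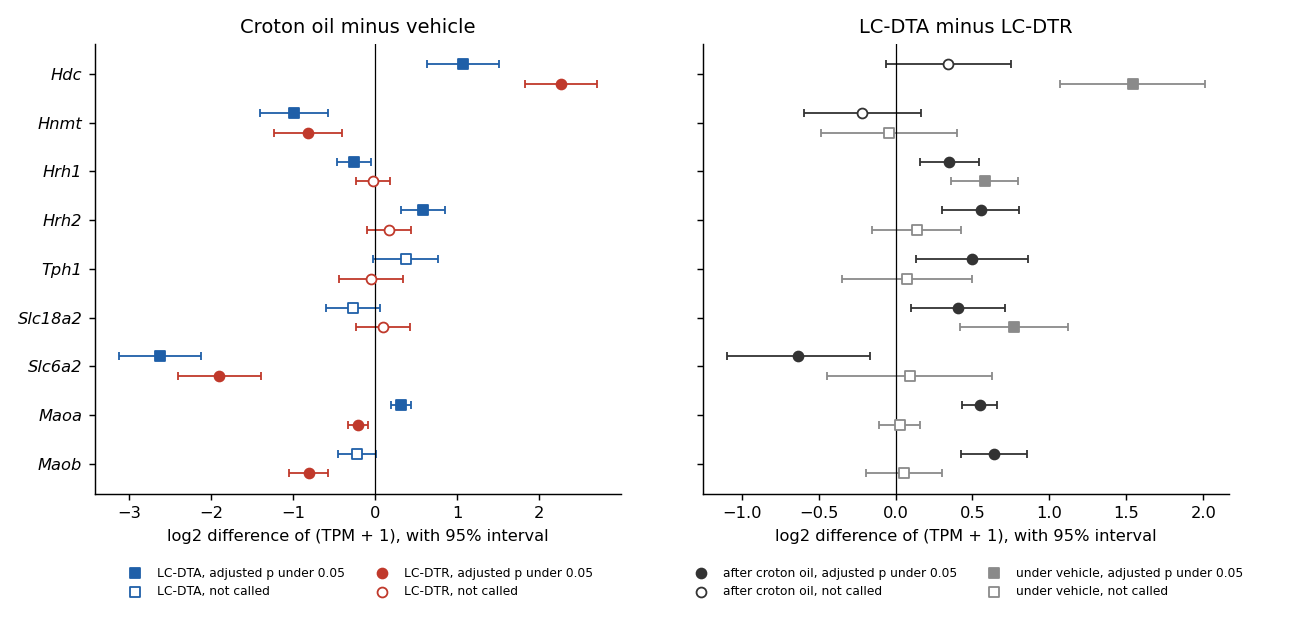
Differences on the log2(TPM + 1) scale (horizontal axes) with 95% intervals for the 9 genes: croton oil minus vehicle in each genotype (left) and LC-DTA minus LC-DTR after croton oil and under vehicle (right). Filled symbols passed an adjusted p of 0.05, and for Maoa the filled croton oil points lie on opposite sides of 0.

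The balance of higher and lower calls over all genes depended on scaling. As deposited, 78.2% of the genes called between genotypes under vehicle were higher in LC-DTA, against 54.1% after median ratio scaling and 47.7% after quantile normalization. After croton oil the share higher in LC-DTA was 65.6% as deposited and 50.1% under both other scalings. For croton oil against vehicle the share higher was 41.2% as deposited, 49.2% after median ratio scaling and 46.4% after quantile normalization in LC-DTA, and 42.8%, 50.8% and 45.1% in LC-DTR. The median over all tested genes shifted by -0.11 on the log2 scale under quantile normalization in the vehicle comparison. Hdc, Hrh1 and Slc18a2 kept their genotype calls under vehicle under both scalings, and Tph1 and Slc18a2 lost theirs after croton oil under quantile normalization.

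Genes whose profiles over the 14 samples were nearest to a member, by root mean square difference of centred log2(TPM + 1), were taken in order of that distance. For Hdc they were Ifi205 at 0.232 and Snord33 at 0.236, where the median over all genes was 1.04. Ifi205 belongs to a family of similar genes that can share reads. For Slc6a2 they were Tppp at 0.188 and Megf6 at 0.303, where the median was 1.16. For Maoa the nearest was Ndufaf2 at 0.0642, for Maob Tbc1d5 at 0.0922 and for Hnmt Wdr19 at 0.117.

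Of 57 other genes of histamine and monoamine synthesis, cofactor supply, transport, breakdown and reception, 56 were in the table, 32 stayed below 1 TPM in every sample and 20 were tested. With croton oil 2 rose and 7 fell in LC-DTA, where 24.2% of all tested genes rose and 34.5% fell. In LC-DTR 3 rose and 11 fell, where 22.1% of all tested genes rose and 29.5% fell. Pnmt and Htr7 reached 1 TPM only after croton oil, and Adra1b and Adrb3 only under vehicle. The filter took those genes in through groups where they were high, and the counts describe the 20 genes only. Gch1, the first enzyme of tetrahydrobiopterin synthesis, the cofactor of Tph1, averaged 34.7 ± 3.51 TPM after croton oil and 12.2 ± 0.84 TPM under vehicle in LC-DTA, and 30.6 ± 6.02 TPM after croton oil and 11.6 ± 2.48 TPM under vehicle in LC-DTR (SD, n = 4 and 3). It rose by 1.43 and 1.33 on the log2 scale in LC-DTA and LC-DTR (limma adjusted p = 5.69e-06 and 1.63e-05). Adra2a, an inhibitory adrenergic receptor, fell by 1.32 in LC-DTA and by 0.80 in LC-DTR, and those responses differed by -0.52 ± 0.17 (limma adjusted p = 0.0413). Slc6a4, the serotonin transporter, averaged 16.6 ± 1.33 TPM after croton oil and 31.7 ± 3.31 TPM under vehicle in LC-DTA, and 48.5 ± 6.85 TPM after croton oil and 61.9 ± 21.0 TPM under vehicle in LC-DTR. It fell by 0.89 on the log2 scale in LC-DTA (limma adjusted p = 0.00129), and LC-DTA was below LC-DTR after croton oil (-1.48 ± 0.18, limma adjusted p = 2.35e-05) and under vehicle (-0.88 ± 0.20, limma adjusted p = 0.00755).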

How the data were processed

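RNA-seq of whole mouse ear in 14 samples was analysed from the deposited table of TPM per gene. Libraries were made with a stranded mRNA kit, per the labels' protocols, and cutadapt, HISAT2, Subread, featureCounts and mm10 are named in the submitters' processing notes, without their roles or settings. The deposited TPM sum to 1000000 in each sample and keep no depth, so depth is unknown and no counting interval is given. Of 24062 deposited TPM entries, 27 with date-like names (0.124% to 0.145% of a sample's TPM) were left out. Groups came from the sample titles. limma 3.58.1 in R 4.3.3 was fitted to log2(TPM + 1) with a trended prior and 4 group means over all samples, for the 14693 genes at 1 TPM or more in at least 3 samples, with Benjamini-Hochberg adjustment over all of them. The fold changes are on that scale, which understates changes of low genes. The code was tested on simulated data. The members and gene lists were chosen with earlier results of these data known. All members are named, with up to 4 genes of lowest p in each other list, markers at or near 0, and up to 3 genes of nearest profile, predicted genes passed over. The values of 1 marker gene are not reported here. Alternatives were another pseudocount (0.1 or 5), no filter, a 5 TPM filter, 2 other scalings, limma without trend or robust, a replicate block, fits to the compared groups only, and leaving out samples. Same-numbered samples did not deviate together (r from -0.291 to 0.126), so no pairing by number was seen. With so few samples in a group this check cannot exclude pairing.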

Additional observations from a re-analysis of the deposited data

Results flagged for a closer look

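For 3 of the 9 genes the croton oil response differed between genotypes in the interaction test of limma. Hdc had a difference of responses, LC-DTA minus LC-DTR, of -1.196 on the log2 scale (limma adjusted p = 0.0109), with a rise in both genotypes. Maoa had a difference of 0.5198 (limma adjusted p = 0.00120), with a rise in LC-DTA and a fall in LC-DTR. Maob had a difference of 0.5852 (limma adjusted p = 0.0155), with a fall in LC-DTR and a value of -0.23 in LC-DTA that did not pass. In 18 groups of 4 samples no sample of a member lay far from the others, where chance gives about 1 in 20.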

How the results depend on the processing

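Of 24 member calls, 18 held under every alternative that gave a value and 6 were lost under at least 1: Hrh1 with croton oil in LC-DTA, Maoa with croton oil in LC-DTR, Tph1, Slc18a2 and Slc6a2 between genotypes after croton oil, and the Maob difference of responses. No call changed sign, and the cause of each loss was not tested. Of 21 values not called, 3 passed under at least 1 alternative (Tph1 and Maob with croton oil in LC-DTA, and the Hrh2 difference of responses). Hrh1 in LC-DTA was lost under 11 of 25 alternatives. Beside single samples left out, these were a pseudocount of 0.1 (limma adjusted p = 0.0605), median ratio scaling (0.0579) and quantile normalization (0.204). They also included the replicate block (limma adjusted p = 0.0634), the compared groups only (0.0547) and leaving out LC-DTA croton oil 3 and 4 together (0.109). Members called between genotypes under vehicle numbered 3, and 1 with a 5 TPM filter, which tests fewer genes. After croton oil they numbered 7, against 4 without a filter, 3 with a 5 TPM filter, 4 without LC-DTA croton oil 3 and 4, 4 without LC-DTR croton oil 2 and 3, and 4 to 7 when 1 sample was left out. Leaving out 1 sample gave 1780 (without LC-DTR vehicle 2) to 3775 genes called between genotypes under vehicle, with 2123 without LC-DTA vehicle 3, against 3595, and 2220 (without LC-DTA vehicle 2) to 3575 for the difference of responses, against 3389. Values that changed sign were none of them called. Without LC-DTR croton oil 2 and 3, Tph1 with croton oil in LC-DTR was 0.11, and Hnmt was 0.13 between genotypes after croton oil and 0.17 for the difference of responses. Between genotypes under vehicle, median ratio scaling gave -0.0093 for Slc6a2, -0.075 for Maoa and -0.044 for Maob, and quantile normalization gave -0.014 for Hrh2, -0.11 for Tph1, -0.0099 for Slc6a2, -0.063 for Maoa and -0.069 for Maob. With 1 sample left out, croton oil in LC-DTR ranged from -0.082 to 0.0066 for Hrh1, -0.18 to 0.024 for Tph1 and -0.027 to 0.19 for Slc18a2. Genotype under vehicle then ranged from -0.094 to 0.058 for Hnmt, -0.019 to 0.16 for Tph1, -0.032 to 0.24 for Slc6a2, -0.010 to 0.070 for Maoa and -0.046 to 0.14 for Maob. With the replicate block, which the numbers do not justify as pairs (7 of 26 samples matched best with their own number), members called were 5 in LC-DTA, 5 in LC-DTR, 3 under vehicle, 5 after croton oil and 3 for the difference, and genes called were 7733, 6445, 2879, 7048 and 2660 in the same order.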
